A study of Mus musculus with 2 samples.

Results

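Methylation of histone H3 on lysine 9 (H3K9) marks silent chromatin, and 10 genes that write it, recruit it or read it were followed here: the methyltransferases Setdb1, Suv39h1, Suv39h2, Ehmt1 and Ehmt2, the SETDB1 partner Atf7ip, the corepressor Trim28, the zinc finger gene Zfp57, the HP1 gene Cbx5 and the chromatin remodeller Atrx. The genes were chosen by name, with earlier results of these data known. Each was described by all probe sets that the platform annotation gives to it alone. Of the 10 genes, 9 had such probe sets, 27 in all, on an array with 18193 genes that had a probe set of their own. No probe set was listed under Suv39h1, so it has no value here. Total RNA came from 1 sample of mouse embryonic stem (ES) cells labelled as a Dnmt1 knockout (KO) and 1 sample labelled as its control. Each was hybridised to 1 Affymetrix mouse expression array (MOE 430 2.0). Only the sample titles separate the groups, since both source names describe the control. The strain, the ES cell line, the Dnmt1 allele, the number of clones, the passage and the culture medium of both groups were not stated in the labels used here. The study's stated use of the arrays was as a KO control for other work on ES cell differentiation. With 1 array a group no difference can be set against a spread between cultures, no test was possible, and the precision of each value is limited by having 1 array.

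In ES cells, H3K9 trimethylation silences endogenous retroviruses and other repeats, and it works beside DNA methylation, which DNMT1 copies onto the new strand after replication. KRAB zinc finger proteins bind their DNA targets and recruit TRIM28, which brings in SETDB1 with its cofactor ATF7IP. ZFP57 is the KRAB zinc finger protein that binds the methylated copy of imprinting control regions. SUV39H1 and SUV39H2 methylate pericentromeric repeats, the EHMT1 and EHMT2 heterodimer (GLP and G9a) makes dimethylated H3K9 in euchromatin, HP1 proteins such as CBX5 bind methylated H3K9, and ATRX, with DAXX, deposits histone H3.3 at repeats and telomeres.

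The promoters of the genes at the ends of the measured range are printed because CpG dinucleotides, in capitals, are the sites that DNMT1 methylates. Each run is 300 bases, from 250 before to 50 after an annotated start, read 5' to 3' on the gene's strand from RefSeq (GRCm38.p6). Atf7ip and Setdb1 had the highest ratios of the KO to the control array, Cbx5 had the lowest, and Zfp57 has the promoter with the fewest CpGs among these genes.
Atf7ip (chr6:136518601-136518900, + strand): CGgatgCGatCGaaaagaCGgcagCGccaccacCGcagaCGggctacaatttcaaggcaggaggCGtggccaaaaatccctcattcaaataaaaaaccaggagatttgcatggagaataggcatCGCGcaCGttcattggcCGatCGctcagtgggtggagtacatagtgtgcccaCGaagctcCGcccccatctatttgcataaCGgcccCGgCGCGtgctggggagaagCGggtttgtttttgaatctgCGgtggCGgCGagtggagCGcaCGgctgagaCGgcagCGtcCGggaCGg
Setdb1 (chr3:95357153-95357452, - strand): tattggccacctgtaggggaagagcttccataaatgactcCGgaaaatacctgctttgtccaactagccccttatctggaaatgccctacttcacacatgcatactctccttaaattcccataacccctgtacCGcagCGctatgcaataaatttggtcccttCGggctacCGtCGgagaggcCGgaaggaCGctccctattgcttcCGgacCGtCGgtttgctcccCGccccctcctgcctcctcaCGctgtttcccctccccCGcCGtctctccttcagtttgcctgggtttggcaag
Cbx5 (chr15:103239803-103240102, - strand): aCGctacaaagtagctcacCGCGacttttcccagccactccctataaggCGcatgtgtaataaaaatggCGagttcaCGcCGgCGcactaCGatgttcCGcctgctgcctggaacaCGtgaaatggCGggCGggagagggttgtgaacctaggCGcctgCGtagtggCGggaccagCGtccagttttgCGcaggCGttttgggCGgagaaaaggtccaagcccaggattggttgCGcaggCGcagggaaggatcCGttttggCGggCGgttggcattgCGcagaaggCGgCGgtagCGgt
Zfp57 (chr17:37003416-37003715, + strand): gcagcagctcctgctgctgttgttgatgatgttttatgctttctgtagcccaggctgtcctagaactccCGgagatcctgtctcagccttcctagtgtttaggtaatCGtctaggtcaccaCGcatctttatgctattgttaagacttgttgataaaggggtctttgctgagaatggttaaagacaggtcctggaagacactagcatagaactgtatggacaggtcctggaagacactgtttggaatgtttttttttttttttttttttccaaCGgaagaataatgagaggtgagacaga
The Atf7ip and Cbx5 windows hold 29 CpGs each, the Setdb1 window 15 and the Zfp57 window 4. A second, downstream Cbx5 window, not printed, holds 8.

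RefSeq gave 15 promoter windows for the 10 genes. Of these, 13 held more CpGs than the median of 7 over all 32851 promoters, but only 8 held more than the median of 20 over the 12662 promoters of genes measured on these arrays. The second Ehmt2 window had the most, 40 CpGs, and those of Suv39h2 and Ehmt1 had 33 and 34. The 3 Zfp57 windows, with 6, 9 and 4, all held fewer than the median of the measured genes. The letters TGCCGC, the core that ZFP57 binds when methylated, were found on either strand in 3 of the 15 windows (Trim28, Suv39h1 and Ehmt2), against 11.6% of all promoters and 18.9% of those of measured genes. The E-box CACGTG, which reads the same on both strands, was in 3 windows (both of Ehmt2 and the upstream one of Cbx5), against 7.15% of all promoters and 9.91% of those of measured genes. The GC box GGGCGG was on either strand in 11 windows, against 35.7% and 61.7%. Motifs were counted separately, so TGCCGC and GGGCGG may overlap on opposite strands, and a match is not a bound site.

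The KO array was brighter as a whole, so the scale of each ratio is stated. Signals are the deposited MAS5 values in linear units. Signals at or below a floor, set at the median of an array's probe sets without the controls, were not ranked. The floor was 74.2 on the KO array and 60.9 on the control array. The median gene above the floor on both arrays was 1.34-fold brighter on the KO array, a shift of 0.43 on the log2 scale, whereas 9 spike-in probe sets had a median log2 ratio of -0.07 (range -0.54 to -0.03) as deposited. Log2 ratios below are KO over control after subtraction of this shift, and a ratio without it is called as deposited. Dnmt1 itself had signals of 262.1 on the KO array and 1949.1 on the control array in its brightest probe set, a log2 ratio of -3.32, and its other probe sets were below the floor on the KO array alone. All 10 ES cell markers listed were above the floor on both arrays, and Nanog alone was 2-fold different (1965.5 on the KO array and 592.5 on the control array, 2.47-fold higher). The median log2 ratio of these 10 was -0.11, with 3 above the shift and 7 below it, down to -0.62. Of 12 fibroblast markers, which feeder cells would carry, 8 were above the floor on both arrays and Col3a1, Postn, Lum and Dcn on neither. Tagln alone of the 8 was 2-fold different (345.9 on the KO array and 707.9 on the control array, log2 -1.46). The 8 had a median log2 ratio of -0.13, with 3 above the shift, up to 0.54, and 5 below it. As deposited, the brightest signals of all 12 summed to 6975.9 on the KO array and 5493.4 on the control array. The part of such cells in the results was not tested. Relative to the shift, 133 of 12226 measured genes, those above the floor on 1 array or both, were higher by 2-fold or more and 65 were lower by as much (602 and 12 as deposited).

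None of the 9 genes was 2-fold different on the KO array once the shift was subtracted. Relative to the shift, 0 of 9 were higher by 2-fold or more, against 1.09% of all measured genes, and 0 were lower by as much, against 0.532%. Their log2 ratios ran from 0.65 for Atf7ip to -0.40 for Cbx5, with a median of -0.12, beside 0.00 for all measured genes. Of the 9, 4 lay above the shift and 5 below it, where 49.2% of all measured genes lay above. As deposited all 9 ratios were positive, with a median of 0.30, and Atf7ip alone was at least 2-fold higher, where 4.92% of all genes were, while 0 were 2-fold lower, where 0.0982% of all genes were. At 1.5-fold relative to the shift, Atf7ip was again the only one higher (4.74% of all genes) and none was lower (4.25%). A technical scale for these numbers is the SD between probe sets of the same gene, 0.24 on the log2 scale, pooled over 4704 genes. It leaves out differences between cultures and arrays, and bulk RNA cannot tell fewer expressing cells from less RNA per cell. By that scale 4 of the 9 genes, Atf7ip, Setdb1, Ehmt2 and Cbx5, lay more than 1 SD from the shift, and 5 lay within it, as did 59.7% of all genes above the floor on both arrays.

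**Figure D1:**
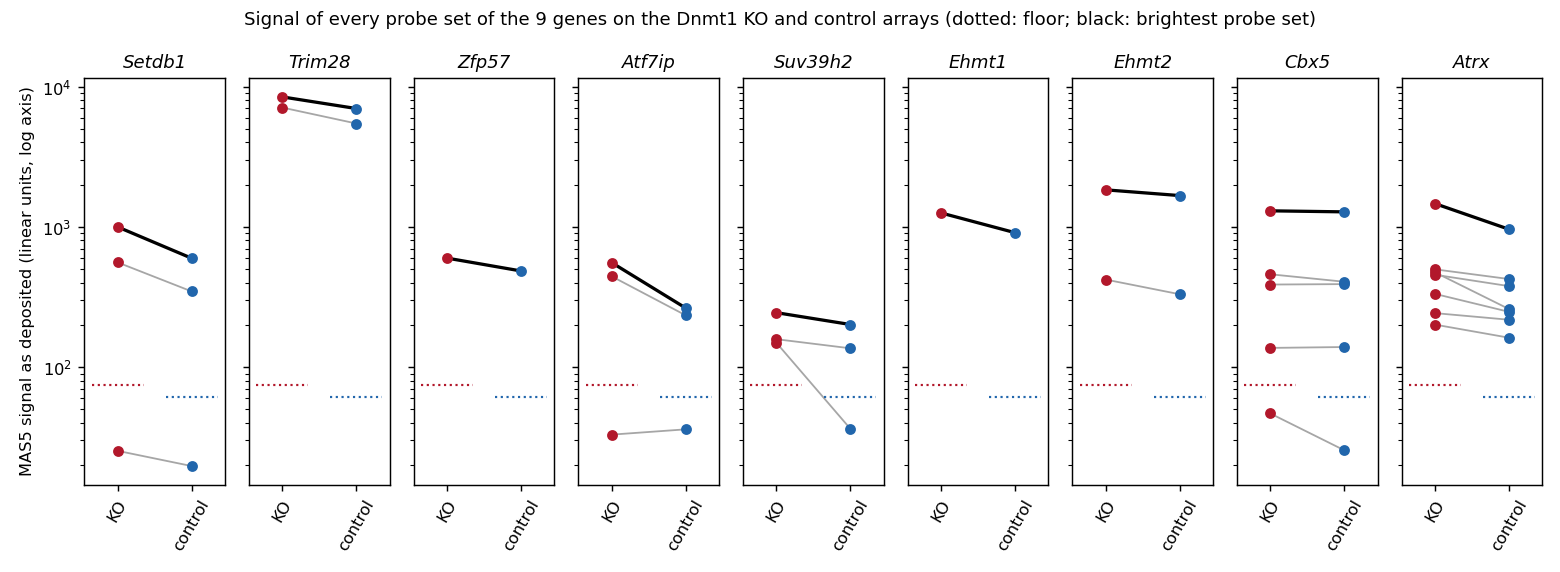
Signal of each of the 27 probe sets (linear MAS5 units on a log axis) on the Dnmt1 KO array (red) and the control array (blue), one panel per gene, with the floor of each array dotted and the brightest probe set in black. Trim28 was at 8433.4 on the KO array and 6964.9 on the control array, and 1 Suv39h2 probe set crossed the floor.

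Of the 27 probe sets, 23 were above the floor on both arrays, 1 only on the KO array and 3 on neither. Those on neither were 1 each for Setdb1 (25.3 on the KO array and 19.7 on the control array), Atf7ip (33.0 on the KO array and 36.0 on the control array) and Cbx5 (46.7 on the KO array and 25.5 on the control array), and they have no ratio. Of the 23, 8 lay above the shift and 15 below it. As deposited, 21 were brighter on the KO array and 2, both of Cbx5, on the control array. Of the 24 probe sets measured on 1 array or both, 0 reached 2-fold in either direction relative to the shift, where 0.988% of all such probe sets were higher and 0.561% lower, although for 1 of Suv39h2 the ratio is only a lower bound. As deposited, 2 were at least 2-fold higher (4.63% of all), 1 each of Atf7ip and Suv39h2.

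The TRIM28 and SETDB1 arm of the pathway did not lie on one side of the shift. Setdb1, the methyltransferase, had signals of 998.3 on the KO array and 596.7 on the control array in its brightest probe set. A second probe set gave 557.8 on the KO array and 346.2 on the control array. Their log2 ratios were 0.32 and 0.26, and the gene was 1.25-fold higher relative to the shift and 1.67-fold higher as deposited. Among all genes measured on both arrays, 85.7% had a lower ratio.

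Atf7ip, whose protein stabilises SETDB1 and keeps it in the nucleus, had the highest ratio of the 9. Its brightest probe set gave 555.9 on the KO array and 263.5 on the control array, and another gave 443.8 on the KO array and 233.9 on the control array. Both were higher on the KO array, with log2 ratios of 0.65 and 0.50 (mean 0.58 ± 0.11, SD, n = 2 probe sets). The gene was 1.57-fold higher relative to the shift, and 96.5% of genes had a lower ratio. Atf7ip and Setdb1 differed by 0.33. That is under 0.34, which the pooled SD gives as 1 SD of a difference between a pair of genes with 1 probe set each.

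Trim28, the scaffold that KRAB zinc finger proteins recruit, was among the brightest genes of the array, with 99.6% of measured genes at a lower signal. Its probe sets gave 8433.4 and 7080.5 on the KO array, against 6964.9 and 5448.1 on the control array. The log2 ratios were -0.15 and -0.05, so the deposited increase of 1.21-fold in the brightest was smaller than that of the median gene. Under quantile normalization and lowess, which compare it with genes of like brightness, its log2 ratio was -0.0017 and -0.0118. Zfp57, with 1 probe set, had 598.4 on the KO array and 484.4 on the control array, a log2 ratio of -0.12. Neither gene lay more than 1 pooled SD from the shift.

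Suv39h2 gave values on both sides of the shift. Its brightest probe set had 244.4 on the KO array and 201.1 on the control array, and a second had 158.1 on the KO array and 136.1 on the control array, for log2 ratios of -0.14 and -0.21. The remaining probe set had 149.4 on the KO array and 36.3 on the control array, which is below the floor. That probe set was at least 2.45-fold higher as deposited and had a log2 ratio of at least 0.87 relative to the shift, on the other side of it from the first pair. The annotation does not say which transcript each probe set reads. Its paralog Suv39h1 has no value here, so the summed level of the SUV39H enzymes cannot be given.

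The Ehmt1 and Ehmt2 genes encode the subunits of one heterodimer. Ehmt1 had 1255.7 on the KO array and 908.0 on the control array in its only probe set, a log2 ratio of 0.04. Ehmt2 had 1834.2 on the KO array and 1669.2 on the control array, a log2 ratio of -0.29, and its dimmer probe set had 420.7 on the KO array and 330.5 on the control array, a ratio of -0.08. The genes differed by 0.33 from each other, again under 0.34, and by 0.23 when probe sets were averaged.

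Cbx5, which encodes HP1 alpha, had the lowest ratio of the 9, and its measured probe sets lay close together. Its 4 probe sets above the floor had 1299.8, 458.8, 387.6 and 137.0 on the KO array, against 1277.8, 405.7, 390.4 and 139.0 on the control array. As deposited the signals were thus nearly equal, between 0.99-fold and 1.13-fold, where the median gene was 1.34-fold brighter on the KO array. The log2 ratios were -0.40, -0.25, -0.44 and -0.45, with a mean of -0.38 ± 0.09 (SD, n = 4 probe sets), and 3 of the 4 came from one database sequence. Of all genes, 9.80% had a lower ratio, and the genes of chromosome 15, where Cbx5 lies, had a median of 0.02. Whether Cbx5 counts as lower or as equal thus depends on the scaling, and the spike-in probe sets did not share the shift.

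The other HP1 genes, chosen after their values were seen, lay closer to the shift. Cbx1 (HP1 beta) had 2960.4 on the KO array and 2379.3 on the control array, a log2 ratio of -0.11 with a mean of -0.04 ± 0.22 (SD, n = 4 probe sets). Cbx3 (HP1 gamma) had 122.6 on the KO array and 91.1 on the control array in its single-gene probe set, a ratio of 0.00. These Cbx3 signals were not far above the floors of 74.2 and 60.9, so the value may not stand for the gene. Cbx5 lay 0.29 below Cbx1 and 0.40 below Cbx3. Of these gaps, that to Cbx3 alone exceeded 0.34, while under quantile normalization that to Cbx1 was 0.34 and that to Cbx3 was 0.50.

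Atrx, an X-linked gene, had 7 probe sets, all above the floor on both arrays. The brightest had 1462.9 on the KO array and 959.7 on the control array, a log2 ratio of 0.18. Over all 7 the signals ran from 200.8 to 1462.9 on the KO array and from 161.9 to 959.7 on the control array, and each probe set was brighter on the KO array as deposited. Their log2 ratios ran from -0.27 to 0.44, with 3 above and 4 below the shift and a mean of -0.02 ± 0.25 (SD, n = 7 probe sets). The full range of 0.71 occurred within the 5 probe sets that the annotation draws from one database sequence. The highest of these had 473.4 on the KO array and 259.0 on the control array, and its identifier ends in s_at, the manufacturer's mark for probes that match more than one transcript. Among 31 genes with at least 7 usable probe sets, Atrx included, the median range was 0.66, and 58.1% had a smaller one than Atrx. Genes with more than 7 were among them, and a range tends to widen with the number of probe sets. X-linked genes had a median of -0.08 over 364 genes.

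**Figure D2:**
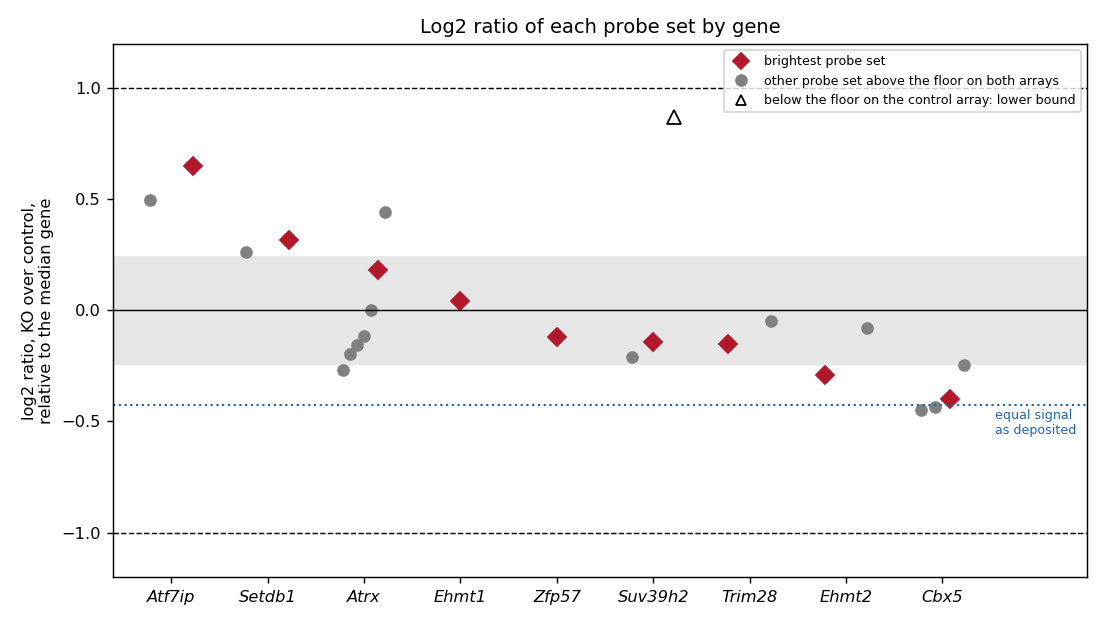
Log2 ratio of KO over control relative to the median gene for each probe set above the floor on at least 1 array, by gene, from the highest (Atf7ip, 0.65) to the lowest (Cbx5, -0.40). The grey band is 1 pooled SD between probe sets (0.24) on each side, dashed lines are 2-fold, and the dotted line marks equal deposited signals, near which 3 of the 4 Cbx5 probe sets lie.

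In order of their log2 ratios the genes were Atf7ip (0.65), Setdb1 (0.32), Atrx (0.18), Ehmt1 (0.04), Zfp57 (-0.12), Suv39h2 (-0.14), Trim28 (-0.15), Ehmt2 (-0.29) and Cbx5 (-0.40). No neighbours in this order differed by more than 0.34, and the widest gap was that of 0.33 between Atf7ip and Setdb1. Sorting itself keeps the gaps between neighbours small, so they do not tell whether the genes differ. The ends of the order, Atf7ip and Cbx5, differed by 1.05. Of the 7 genes with more than 1 probe set above the floor on both arrays, Atrx alone had such probe sets on both sides of the shift. In Setdb1, Trim28, Suv39h2, Cbx5, Atf7ip and Ehmt2 the SD between these probe sets was 0.04, 0.07, 0.05, 0.09, 0.11 and 0.15, all below the pooled 0.24. Apart from Cbx5, with 4, each of these SDs rests on only 2 probe sets, and the 2 of Ehmt2 came from one database sequence. The choice of probe set therefore sets the sign for Atrx and, through its remaining probe set, for Suv39h2. Setdb1, Trim28, Ehmt1, Ehmt2, Cbx5 and Atrx lay in the brightest of 4 equal bins of signal, where 2749 genes had a median log2 ratio of 0.00 and an SD of 0.28, while Zfp57 and Atf7ip lay in the bin below and Suv39h2 in the one below that.

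**Figure D3:**
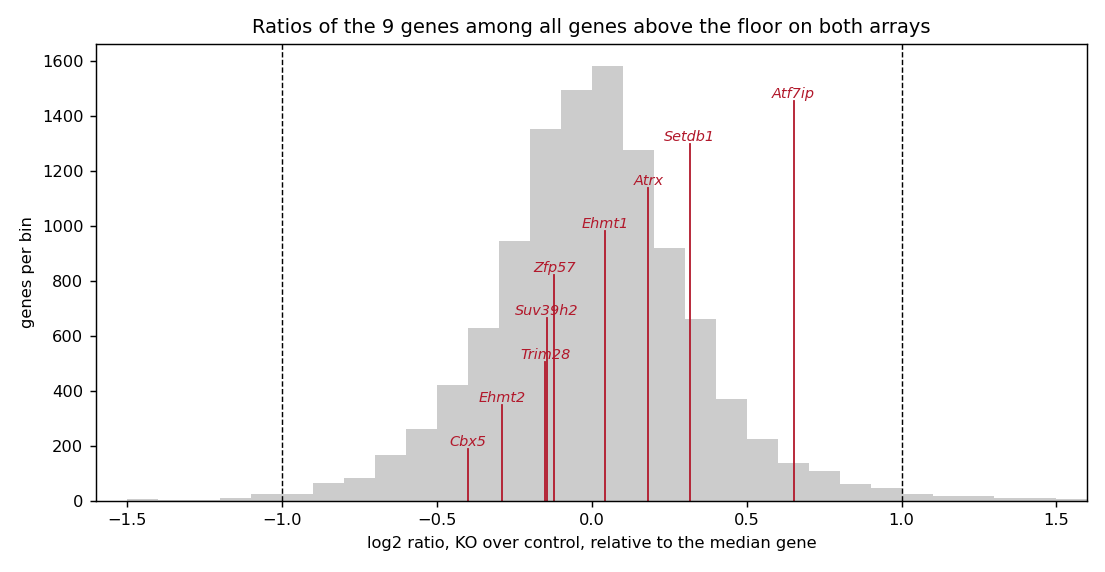
Log2 ratios (KO over control, relative to the median gene) of all 10995 genes above the floor on both arrays, as a histogram with bins 0.1 wide, and of the 9 genes as red lines whose height has no meaning. All 9 lie inside the dashed 2-fold lines, and Atf7ip lies in the upper tail with 96.5% of genes below it.

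The rest of the heterochromatin machinery was set beside these genes in 6 lists holding 70 other genes, of which 62 were measured. Relative to the shift, 0 of the 62 were 2-fold higher (1.09% of all genes) and 0 were 2-fold lower (0.532%). As deposited, Atf7ip2 and Zfp809 were at least 2-fold higher (4.92% of all genes). Their median log2 ratio was -0.04, with 25 above the shift and 37 below. Among 12 measured H3K9 methyltransferases and partners, the median was 0.06. Atf7ip2, the paralog of Atf7ip, had the highest ratio of that list, with 290.1 on the KO array and 140.6 on the control array (log2 0.62). It lay beside Atf7ip, at a distance of 0.03. Mecom, a PR-domain gene, had the lowest at -0.17, with both signals just above the floor (75.9 on the KO array and 63.8 on the control array).

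The 10 measured HP1-binding and HP1 family genes had a median of -0.01, from 0.19 for Smarcad1, a remodeller that binds TRIM28 and whose 2 probe sets averaged -0.02 ± 0.31 (SD), to -0.34 for Lmnb1, which encodes lamin B1. Among 11 HUSH and KRAB silencing partners the median was -0.05. Zfp809, the KRAB zinc finger gene that targets the primer binding site of murine leukaemia viruses, had 414.4 on the KO array and 180.5 on the control array in 1 probe set (log2 0.77). Tasor, the HUSH scaffold gene, was the lowest at -0.26. The 7 measured genes of the ATRX, DAXX and H3.3 list had the lowest median, -0.20, and 6 of them lay below the shift. That median is the value of the H3.3 gene H3f3a, with both signals just above the floor (79.6 on the KO array and 68.1 on the control array), so it may not stand for the gene. H3f3b, also an H3.3 gene, was below the floor on both arrays (57.5 on the KO array and 58.6 on the control array). Both were named after their values were seen. The 7 genes ran from 0.20 for Cabin1, part of the HIRA chaperone complex, whose 3 probe sets averaged -0.07 ± 0.25 (SD), to -0.42 for Asf1b, a histone chaperone. Asf1b had 913.3 on the KO array and 908.9 on the control array, and it lies on chromosome 8, whose genes had a median of -0.37. Daxx, the partner of Atrx, had a log2 ratio of -0.19 (1095.1 on the KO array and 930.7 on the control array) and was chosen after its values were seen.

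The H3K9 demethylases, which remove the mark, had a median of -0.04 over 10 measured genes, with Kdm7a highest at 0.37 and Kdm4b lowest at -0.25 or below, its KO signal being under the floor. The 12 measured genes of H4K20 methylation and other heterochromatin functions had a median of -0.01, from 0.33 for Cenpa, the centromeric histone H3 gene, to -0.29 for the H4K20 methyltransferase Kmt5b, whose 4 probe sets averaged -0.26 ± 0.43 (SD). As deposited the medians of all 6 lists were positive, between 0.23 and 0.48, so a direction below the shift holds only relative to the median gene.

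**Figure D4:**
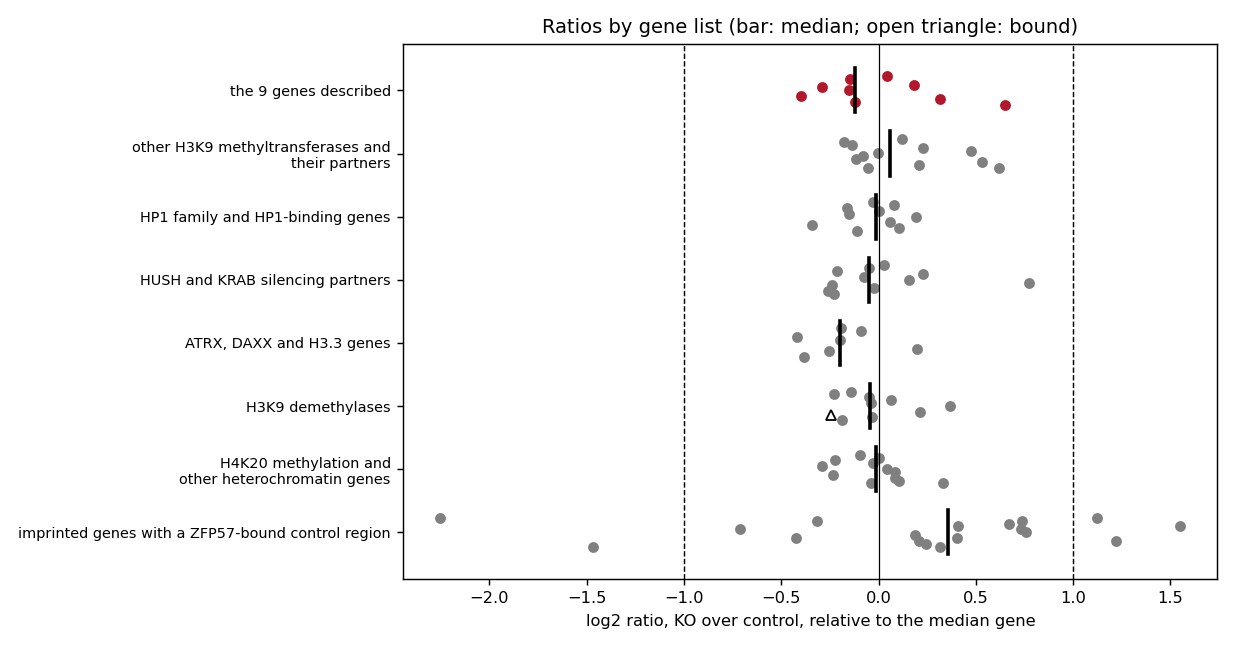
Log2 ratios (KO over control, relative to the median gene) of the 9 genes, in red, and of the measured genes of the 6 machinery lists and of imprinted genes, in grey, with each list's median as a black bar and the 2-fold lines dashed. The machinery genes all lie between -0.42 and 0.77, and 5 imprinted genes lie outside the 2-fold lines.

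Genes reported as targets of 2 members were also measured. Of 25 imprinted genes listed near control regions that ZFP57 binds, 22 had a single-gene probe set and 18 were measured. Zim1, Snrpn, Airn and Gnasas1 were below the floor on both arrays, and H19, Zrsr1 and Peg13 had no single-gene probe set. Of the 18, 3 were at least 2-fold higher, namely Dlk1 (626.1 on the KO array and 159.1 on the control array, log2 1.55), Sgce (1.22) and Peg3 (1.12). Sgce had 238.2 on the KO array and 76.1 on the control array in 1 probe set, the control signal being not far above the floor of 60.9. Another 2 were at least 2-fold lower, namely Grb10 (331.8 on the KO array and 1176.5 on the control array, -2.25) and Cdkn1c (-1.47). Over all genes 1.09% were as much higher and 0.532% as much lower. The list was chosen with earlier results of these data known, so its counts beside those shares are descriptive only. As deposited, 7 of the imprinted genes were at least 2-fold higher (4.92% of all genes) and 2 lower (0.0982%). The median of the 18 was 0.36 relative to the shift, beside the ratio of -0.12 for Zfp57 itself. For the X-linked Mage-a genes, reported targets of EHMT2 in ES cells, 3 of 8 had a single-gene probe set. Magea4 had 90.8 on the KO array and 42.2 on the control array, below the floor, so its log2 ratio was at least 0.15, and Magea5 and Magea6 were below the floor on both arrays. Transcript levels of the repeats that these enzymes silence, the H3K9 mark itself and the proteins were not analysed here.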

How the data were processed

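RNA from 1 Dnmt1 KO and 1 control ES cell sample was measured on 1 array each. Per the submitters' processing notes, the authors made the deposited signal intensities with MAS5, which summarises perfect-match and mismatch probes. The target intensity and any scaling between the arrays are not stated there, and no detection calls were used. The trimmed mean (2% at each end) was 247.6 on the KO array and 184.7 on the control array.

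Of 45101 probe sets, 64 controls were left out. In the platform annotation 34958 probe sets had 1 gene symbol, 932 several and 9211 none; 34741 of the 34945 single-gene ones matched RefSeq (GRCm38.p6), which updated symbols. Signals were floored at each array's median, each gene took the value of its brightest probe set, and log2 ratios were centred on the median gene. Python 3.11.15, pandas 2.3.3 and statsmodels 0.14.6 were used. No test between groups exists with 1 array each, so counts at 2-fold are descriptive. The procedure was tested on simulated data, with changes larger than 2-fold in genes well above the floor. Smaller ratios, such as those of the members, were not covered by it. The members and lists were chosen with earlier results of these data known. Named were all members with every probe set and Dnmt1. Of each other list, every gene 2-fold different was named or, if none, the highest and lowest ratio. Fibroblast, imprinted and Mage-a genes below the floor on both arrays were named as well, as were imprinted genes without a single-gene probe set. Any other named gene was picked after seeing its values, as stated beside it. Alternatives were no centring, quantile normalization, lowess, other floors, the mean over probe sets and a 1.5-fold threshold.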

Additional observations from a re-analysis of the deposited data

How the results depend on the processing

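No paired analysis was possible because each group had 1 array, and no replicate could be left out. The counts of 0 members at least 2-fold higher and 0 lower held under quantile normalization, lowess, the floors at the 25th and 75th percentiles, no floor and the mean over probe sets. As deposited, 1 member was higher and the median of the members was 0.30, against -0.12 relative to the shift, by construction of the centring; at 1.5-fold, 1 member was higher and 0 were lower. Under those 6 alternatives to the scaling, floor and probe set choice, other than no centring, the log2 ratio of Atf7ip stayed between 0.59 and 0.69, Setdb1 between 0.30 and 0.35, Cbx5 between -0.42 and -0.37 and Ehmt2 between -0.31 and -0.17. The median of the members came to -0.0017 under quantile normalization, and Trim28 to the same value, so the distance of Trim28 from the shift depends on the scaling, although its sign did not change. Atrx changed side with the mean over probe sets (-0.0041). Over all genes, 133 were higher and 65 lower, against 602 and 12 as deposited, 361 and 388 with the floor at the 25th percentile, 48 and 12 at the 75th, 929 and 1118 with no floor, and 579 and 519 at 1.5-fold. Without detection calls, signals under the floor leave only bounds for Magea4, Kdm4b and 1 probe set of Suv39h2.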

Other observations

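Among the partners of H3K9 methyltransferases, some genes other than Atf7ip2 had ratios near that of Atf7ip, and they are given as values chosen after they were seen. Max, the dimer partner of MGA and MYC proteins, had 897.2 on the KO array and 461.7 on the control array (log2 0.53, 1 probe set). L3mbtl2, which joins MAX, MGA and E2F6 in a repressor complex, had 1534.5 on the KO array and 823.1 on the control array (log2 0.47, 1 probe set). The other genes of that complex in the list lay closer to the shift, with E2f6 at 0.12 and Mga at 0.00, the 3 probe sets of Mga averaging -0.10 ± 0.27 (SD). Cdyl, a chromodomain gene whose product binds methylated H3K9, had 0.23 in its brightest probe set and 0.32 ± 0.08 (SD, n = 3 probe sets) on average, while its paralog Cdyl2, on chromosome 8, had -0.12 and -0.32 ± 0.21 (SD, n = 4 probe sets).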
